A study of Mus musculus with 2 samples.

Results

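The genes described here encode the collagens, laminins and glycoproteins of the extracellular matrix. They were chosen by symbol, as all genes named Col with 2 chain numbers, the Lama, Lamb, Lamc, Fbln, Fbn, Nid and Thbs families, and Fn1, Postn, Sparc, Tnc, Eln, Dcn, Lum and Bgn. This gave 71 members among the 18194 genes named on the arrays. The series held 2 Affymetrix Mouse 430 2.0 arrays, 1 with total RNA of small intestine and 1 with total RNA of colon, both described in the labels as biopsies of wild-type adult mice. The labels give neither the strain nor the number of animals behind each array. The study's methods describe jejunum and distal colon of C57B6 mice, without tying this to the arrays used here. Each tissue had 1 array, so no difference below could be set against a spread between animals. No test was run, and each count is of genes past a fixed fold.

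Collagens are built from 3 chains wound into a triple helix. The fibrillar types form the fibres of connective tissue, type IV forms the network of basement membranes, and other types coat fibres, link them or span the cell membrane. Laminins are trimers of an alpha, a beta and a gamma chain that assemble under epithelia and around muscle cells and vessels, where nidogens tie them to collagen IV. Fibulins, elastin and fibrillins make up elastic fibres, small leucine-rich proteoglycans such as decorin cover collagen fibrils, and thrombospondins, periostin, tenascin and Sparc are matricellular proteins that adjust how cells meet the matrix. In the gut wall these proteins come mostly from fibroblasts, smooth muscle and endothelium, with some laminin chains made by the epithelium.

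Of the 71 members, 1 was higher in small intestine by 3-fold or more, and 7 were higher in colon by as much. The gene higher in small intestine was the fibulin Fbln1. Those higher in colon were the thrombospondin Thbs4, periostin (Postn), the collagen chains Col8a1, Col1a1 and Col5a2, the laminin chain Lamb3 and lumican (Lum). These are 1.41% of the members in favour of small intestine and 9.86% in favour of colon. Over all 18194 genes, 3.46% passed the same fold in favour of the small intestine and 3.33% in favour of the colon. With both arrays centred on the hybridization spike-in controls, 3 members passed in favour of small intestine, against 837 of all genes, and 5 passed in favour of colon, against 446 of all genes. Levels here are log2 expression values, differences are small intestine minus colon with values below a background level of 5 raised to it, and a fold against a value at or below background is a lower bound, written as at least.

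In all, 14 members had a positive difference and 29 a negative one, and 28 lay at or below background on both arrays. Over all named genes 5152 differences were positive and 5864 negative. The median difference was 0 over all members and 0 over all genes, where each gene at background on both arrays counts as 0. Over those above background on either array it was -0.34 for members and -0.06 for all genes. Both arrays had 39 members above background, 35 of them shared. For the 8 members above background on 1 array alone, the filter sets the direction and the difference is a lower bound. Where 2 or more probe sets of a gene lay above background, their differences had a pooled SD of 0.60 over 4142 genes and 0.62 over 12 members, which is the spread between probes of a gene and not that between animals. Of those 12 members, 10 had the same sign in all such probe sets.

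**Figure D1:**
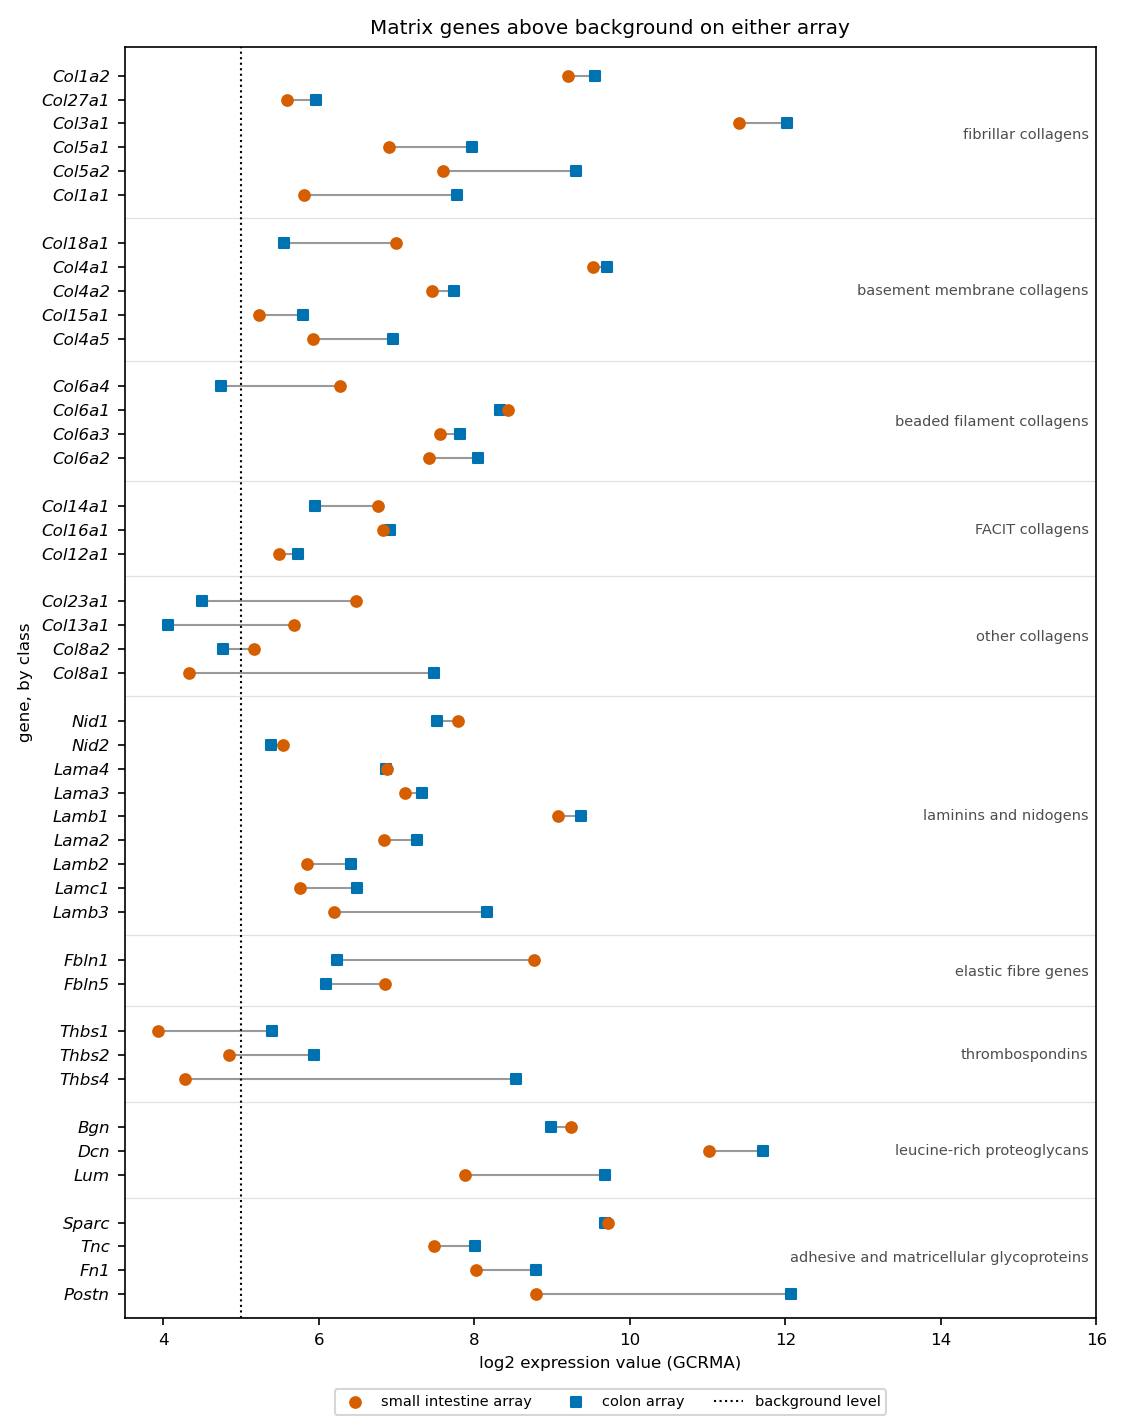
Log2 expression values of the 43 matrix genes above background on either array, grouped by class, with the small intestine array as circles, the colon array as squares and background, 5 on this scale, dotted. The widest gaps are those of Thbs4 and Postn, where the squares lie far to the right, and Fbln1 shows the widest gap in the other direction.

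The tissues could be told apart by their own markers. All 6 small intestinal markers, among them Fabp1 and Lct, passed 3-fold in the small intestine, and 5 of 6 colon markers, among them Car1 and Hoxb13, did so in the colon. Genes of other cell types differed too. Of 10 smooth muscle genes, all above background, 0 passed 3-fold in favour of small intestine and 5 in favour of colon. Their median difference was -1.65, and their summed linear level was 12873 units in small intestine and 28213 units in colon. The list was not uniform, as Lmod1 went the other way with 0.71, and Mylk and Des differed by -0.24 and -0.76. Acta2, the brightest, differed by -1.01. All 8 measured genes of the exocrine pancreas were also higher in the colon, with a summed level of 354 in small intestine and 58171 in colon. Of 7 fibroblast genes outside the members, 1 (Pdgfrb) passed 3-fold in favour of small intestine and 0 in favour of colon, and their summed level was 4340 in small intestine and 4192 in colon. The brightest, Vim, weighs most in that sum, with 11.25 in small intestine and 10.89 in colon. Pdgfra, Dpt and S100a4 differed by -0.70, -0.91 and -0.98, and Thy1 by 0.76. None of 8 endothelial genes passed 3-fold. No gene of the mesothelium or cartilage and bone lists lay above background on either array. The part of muscle and pancreatic tissue in the differences below was not tested, and in bulk RNA fewer cells of a type cannot be told apart from less RNA per cell.

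By their brightest probe sets, all fibrillar collagens above background were lower in the small intestine. Col1a1, the alpha 1 chain of type I collagen, had 5.80 in small intestine and 7.78 in colon, and was therefore 3.93-fold higher in colon. Its second probe set gave 5.04 in small intestine and 4.94 in colon, a difference of at least 0.04, so the fold rests on 1 probe set. Col1a2 encodes the partner chain of the same trimer. It had 9.21 in small intestine and 9.55 in colon, a difference of -0.34, and its second probe set gave -1.32. Both chains thus had a probe set that differed by less than 2-fold and a probe set more than 2-fold lower in the small intestine. Col5a2, a chain of type V collagen, which starts type I fibrils, had 7.60 in small intestine and 9.31 in colon (3.28-fold higher in the colon). Its second probe set gave -0.31. The partner chain Col5a1 had 6.90 in small intestine and 7.96 in colon, a difference of -1.07. Of its 3 probe sets, only 1 lay above background, and the mean over them gave -0.10. Type III collagen is a homotrimer of Col3a1 chains and is plentiful in distensible organs. It had 11.41 in small intestine and 12.02 in colon, and both of its probe sets gave -0.62. Col27a1 differed by -0.38. The cartilage collagens Col2a1, Col11a1 and Col11a2, and also Col24a1 and Col5a3, lay at or below background on both arrays. Col3a1 and Col5a2 are neighbours in the genome, and the differences of this pair were -0.62 and -1.71.

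**Figure D2:**
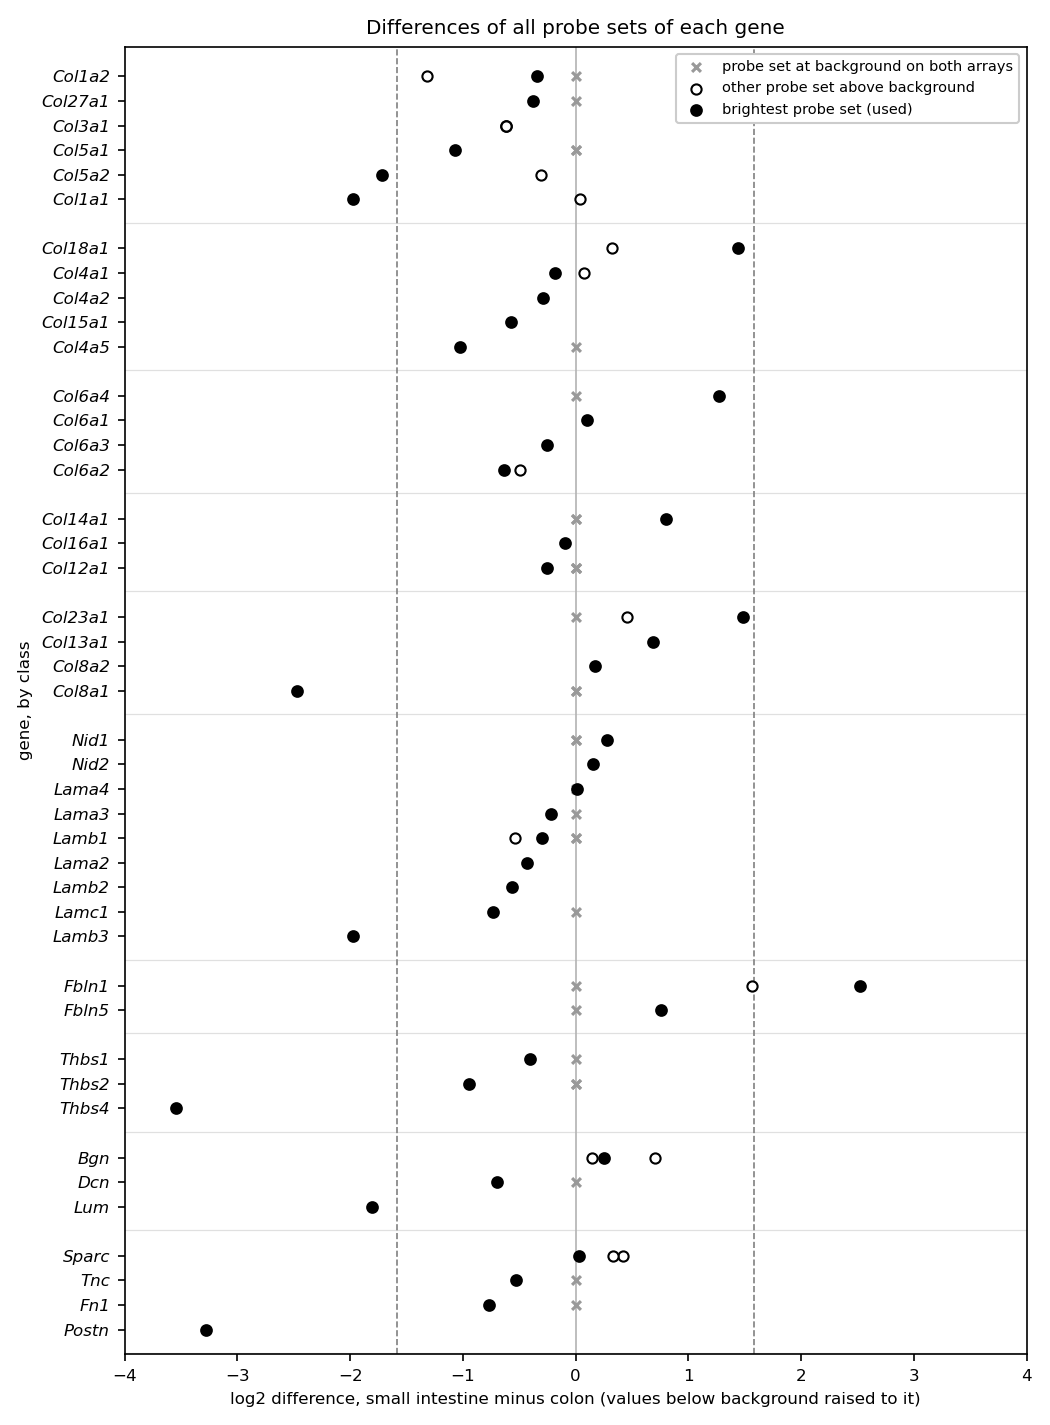
Log2 difference (small intestine minus colon) of every probe set of the 43 members above background, with the brightest, which stands for the gene, filled, other probe sets above background open and those at background as crosses. Dashed lines mark 3-fold. Col1a1 and Col5a2 have a filled point past the line and an open point near 0, while both open points of Sparc and Bgn lie on the same side as the filled one.

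Small leucine-rich proteoglycans bind the surface of collagen fibrils. Lumican, which regulates fibril diameter, had 7.88 in small intestine and 9.68 in colon (3.49-fold higher in the colon). Decorin (Dcn), its neighbour in the genome, had 11.02 in small intestine and 11.71 in colon, a difference of -0.69. Biglycan (Bgn) went the other way, with 9.24 in small intestine and 8.99 in colon, and its 3 probe sets gave 0.26, 0.71 and 0.15. The family therefore held a member past 3-fold, a member lower by less than 2-fold and a member slightly higher in the small intestine.

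Among adhesive and matricellular glycoproteins the widest difference was that of periostin, which binds collagen and promotes its crosslinking. Its level was 8.79 in small intestine and 12.07 in colon, 9.68-fold higher in the colon. It was measured by 1 probe set, and it kept its call under all 9 processing alternatives. Those that changed the background level, combined probe sets or left some out could not move its value, as both levels lay well above background. Quantile normalization and centring gave -3.25 to -3.03. Fibronectin (Fn1), which links integrins to collagen, had 8.02 in small intestine and 8.79 in colon, and tenascin C (Tnc) had 7.48 in small intestine and 8.01 in colon. Sparc, a collagen-binding protein, stood at 9.71 in small intestine and 9.68 in colon, with its other probe sets at 0.42 and 0.33. Periostin was thus the only gene of these 4 to pass 3-fold.

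Thbs1, Thbs2 and Thbs4 exceeded background on the colon array alone, so the filter sets their direction and says nothing of the family as a whole. Thbs4, a pentameric form found in tendon, muscle and nerve, had 4.28 in small intestine and 8.54 in colon, higher in colon by at least 11.6-fold. It had the largest difference of all members. Thbs2 had 4.84 in small intestine and 5.94 in colon, and Thbs1, an activator of latent TGF-beta, had 3.94 in small intestine and 5.40 in colon. Thbs3 was at background on both arrays.

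The short-chain collagen Col8a1, a component of vessel walls, was likewise above background on the colon array alone. It had 4.32 in small intestine and 7.47 in colon, higher in colon by at least 5.56-fold. Its other 2 probe sets did not reach background on either array, with 2.88 in small intestine and 4.62 in colon for the brighter of them. The partner chain Col8a2 lay close to background, with 5.17 in small intestine and 4.77 in colon.

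Promoter windows of Postn, Thbs4 and Col8a1, higher in the colon, are shown so that they can be set beside Fbln1, the gene higher in the small intestine. For Col1a1, Col5a2 and Lum, also higher in the colon, no window was found. Each window is from RefSeq on GRCm38.p6, runs 5′ to 3′ on the strand of the gene, and holds 250 bases before and 50 bases after an annotated start. Capitals mark matches, on either strand, to the TATA box motif TATAAA, the CCAAT box, the GC box motif GGGCGG, the AP-1 motif TGACTCA and the CArG box of serum response factor.
Postn, chr3:54360857-54361156, plus strand, the downstream of 2 annotated starts: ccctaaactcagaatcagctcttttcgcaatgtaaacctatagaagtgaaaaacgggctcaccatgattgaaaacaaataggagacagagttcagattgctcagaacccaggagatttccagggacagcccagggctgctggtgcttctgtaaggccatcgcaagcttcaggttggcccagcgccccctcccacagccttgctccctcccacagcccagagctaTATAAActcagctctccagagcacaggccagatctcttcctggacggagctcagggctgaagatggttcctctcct
Thbs4, chr13:92794769-92795068, minus strand: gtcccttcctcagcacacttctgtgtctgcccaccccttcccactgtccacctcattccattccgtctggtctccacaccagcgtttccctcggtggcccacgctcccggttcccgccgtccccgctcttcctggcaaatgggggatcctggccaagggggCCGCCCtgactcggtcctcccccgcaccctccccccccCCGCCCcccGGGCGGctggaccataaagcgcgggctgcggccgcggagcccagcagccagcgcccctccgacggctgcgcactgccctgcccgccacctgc
Col8a1, chr16:57754688-57754987, minus strand: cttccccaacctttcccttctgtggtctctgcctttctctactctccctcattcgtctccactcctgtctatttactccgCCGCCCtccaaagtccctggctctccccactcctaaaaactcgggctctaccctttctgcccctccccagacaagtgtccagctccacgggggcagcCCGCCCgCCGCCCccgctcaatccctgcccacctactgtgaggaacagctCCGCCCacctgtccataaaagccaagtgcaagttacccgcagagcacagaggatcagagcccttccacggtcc
Fbln1, chr15:85205758-85206057, plus strand, the downstream of 2 annotated starts: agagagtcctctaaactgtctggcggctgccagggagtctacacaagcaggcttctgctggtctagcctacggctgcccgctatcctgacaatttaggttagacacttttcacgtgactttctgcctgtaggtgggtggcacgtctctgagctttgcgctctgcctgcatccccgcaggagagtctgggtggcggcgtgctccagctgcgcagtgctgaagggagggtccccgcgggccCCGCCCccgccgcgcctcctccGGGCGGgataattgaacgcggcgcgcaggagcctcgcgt

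The Postn window held a TATAAA 26 bases before the start and no other match. The Thbs4 window held 3 matches to GGGCGG and the Col8a1 window 4, and that of Fbln1 held 2. GGGCGG was thus found in windows of genes of either direction. It was absent from the other annotated window of Fbln1 and from both windows of Postn and of Lamb3. The upstream window of Postn held a CCAAT and no TATAAA. Windows were found for 50 members, 58 windows in all, and GGGCGG was present in 58.6% of them, against 35.7% of 32851 windows of all genes. For TATAAA these shares were 15.5% of member windows and 13.6% of all windows, for CCAAT 34.5% and 37.4%, for TGACTCA 1.72% and 5.20%, and for the CArG box 3.45% and 1.63%. A CCAAT can overlap a CArG box. The median GC content was 59.3% for member windows and 52.7% for all. A match is a description of letters and not of a bound site.

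Among basement membrane collagens, the common type IV chains differed little. Col4a1 and Col4a2 are the chains of the common type IV network. Col4a1 had 9.53 in small intestine and 9.71 in colon, and Col4a2 had 7.45 in small intestine and 7.74 in colon. Their differences were -0.18 and -0.29, and the second probe set of Col4a1 gave 0.08. These genes are neighbours that start in opposite directions, and their RefSeq windows share 78 bases (GRCm38.p6, chr8:11312777-11312854, plus strand), shown because the pair differed little and alike. The 78 bases hold 1 match to GGGCGG, in capitals.
Col4a1 and Col4a2: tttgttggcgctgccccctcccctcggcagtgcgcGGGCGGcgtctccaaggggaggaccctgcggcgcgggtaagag

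Col4a5, a chain of a less common network, had 5.92 in small intestine and 6.95 in colon, a difference of -1.03. Its neighbour Col4a6, and the pair Col4a3 and Col4a4, lay at background on both arrays, as did the anchoring fibril collagen Col7a1. Col18a1, a basement membrane collagen that carries heparan sulfate and gives rise to endostatin, had 6.99 in small intestine and 5.55 in colon. This is 2.71-fold higher in the small intestine, under the 3-fold rule, and the second probe set gave at least 0.32. Its close relative Col15a1 had 5.23 in small intestine and 5.80 in colon. Col18a1 and Col15a1 thus pointed in opposite directions, neither past 3-fold.

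Laminin chains and nidogens lay within 2-fold between the tissues, with Lamb3 as the exception. Lamb3 encodes the beta 3 chain of laminin-332, which anchors epithelial cells. Its level was 6.19 in small intestine and 8.16 in colon, 3.93-fold higher in the colon, on 1 probe set. The alpha chain of that laminin, Lama3, had 7.11 in small intestine and 7.33 in colon, so its difference of -0.22 was far smaller than the -1.97 of Lamb3. Of the chains shared by many laminins, Lamb1 had 9.08 in small intestine and 9.37 in colon, and Lamc1 had 5.75 in small intestine and 6.48 in colon. The muscle chain Lama2 differed by -0.43, the beta 2 chain Lamb2 by -0.56 and the endothelial chain Lama4 by 0.01. Nid1 and Nid2 differed by 0.28 and 0.15. Lama1, Lama5 and Lamc3 did not exceed background on either array. For Lama5, a chain of mature epithelial basement membranes, the brightest of 3 probe sets had 4.61 in small intestine and 3.34 in colon, which does not show that the gene is silent. All 8 epithelial genes were above background on both arrays, with a median difference of 0.30. Villin (Vil1), of the brush border, was 3.02-fold higher in small intestine, while the keratin Krt19 differed by -0.66.

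Members with higher values in the small intestine were fewer. Fbln1, a fibulin of basement membranes and elastic fibres, had 8.76 in small intestine and 6.24 in colon, 5.76-fold higher in the small intestine. Its second probe set had 6.56 in small intestine and 4.93 in colon, a difference of at least 1.56 in the same direction. As the colon value lay below background, this bound does not settle on which side of 3-fold the probe set fell. Fbln5, which is needed for elastic fibre assembly, had 6.85 in small intestine and 6.09 in colon. Elastin itself (Eln) was at background, with 4.30 in small intestine and 4.54 in colon for the brighter of its 2 probe sets, as were Fbln2, Fbln7 and Fbn2. Both elastic fibre genes above background therefore had higher values in the small intestine.

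Col23a1, Col13a1 and Col6a4 exceeded background on the small intestine array alone, which sets their direction. The transmembrane collagen Col23a1 had 6.48 in small intestine and 4.50 in colon, higher in small intestine by at least 2.79-fold, and its next probe set gave at least 0.46. Another transmembrane collagen, Col13a1, had 5.68 in small intestine and 4.06 in colon. Col6a4, a chain of type VI collagen, had 6.27 in small intestine and 4.74 in colon, higher in small intestine by at least 2.42-fold. Col6a1, Col6a2 and Col6a3, which form the common trimer of type VI collagen, differed by 0.10, -0.64 and -0.26. Of the collagens that sit on fibrils, Col14a1 had 6.76 in small intestine and 5.95 in colon, and Col12a1 and Col16a1 differed by -0.25 and -0.09. Col9a1, Col9a2, Col9a3, Col19a1, Col20a1 and Col22a1 of that class lay at background on both arrays, as did Col6a5, Col10a1, Col17a1, Col25a1 and Col26a1.

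Genes that make, bind and cut the matrix were counted in 11 lists chosen by function. Of 21 enzymes that fold and crosslink collagen, none passed 3-fold in either direction. P4hb, a subunit of prolyl hydroxylase and an abundant chaperone of the secretory pathway, had 13.47 in small intestine and 12.06 in colon. The collagen chaperone Serpinh1 differed by -0.17. Crtap and Plod2, which modify prolines and lysines of collagen, differed by -1.27 and -1.23. None of 17 integrins passed 3-fold. Itga3, a laminin receptor subunit, differed by 1.28, and the muscle subunit Itga7 had 3.61, below background, in small intestine and 5.93 in colon. Of 15 other matrix receptors, the scavenger and thrombospondin receptor Cd36 was 3.11-fold higher in the small intestine and the syndecan Sdc2 3.16-fold higher in the colon. Both fell under 3-fold with the mean over probe sets, at 1.51 for Cd36 and -1.45 for Sdc2.

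The protease genes that passed 3-fold all did so toward small intestine, while others differed toward colon by less. Over all genes, 3.46% passed 3-fold toward small intestine and 3.33% toward colon. Of 14 metalloproteinases, 3 passed 3-fold in favour of small intestine and 0 in favour of colon. The median difference of the 14 was 0.01, and it was 0.22 over the 9 above background. Mmp14 differed by -0.87. Mmp7, the matrilysin of Paneth cells, had 12.45 in small intestine and 5.59 in colon, the stromelysin Mmp10 had 9.83 in small intestine and 2.92 in colon, and the collagenase Mmp13 had 8.24 in small intestine and 5.86 in colon. Mmp7 is known in mouse for processing defensins rather than collagen. Of 8 procollagen processing genes, 1 (Mep1b) was 9.25-fold higher in the small intestine and 0 passed in favour of colon. Mep1b encodes meprin beta, which is also a brush border peptidase. In the same list Mep1a and Pcolce differed by -0.83 and -1.34, and Bmp1 by at least 0.92. The median over the 5 genes above background was -0.14. None of 6 metalloproteinase inhibitors passed 3-fold, and Timp2 and Timp3 differed by -0.80 and -0.74.

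Other matrix genes outside the members had calls in both directions. Of 19 proteoglycan genes, the leucine-rich Ogn and Aspn were 5.66-fold and 5.45-fold higher in the colon, and serglycin (Srgn), a granule proteoglycan of blood cells, was 3.04-fold higher in the small intestine. The median or the mean over probe sets gave -1.44 for Aspn, under 3-fold. Of 14 matricellular genes, Ccn3 had 5.77 in small intestine and 13.40 in colon, Ccn2 had 8.02 in small intestine and 10.02 in colon, and Sparcl1 was 3.58-fold higher in colon. Tgfbi went the other way, with 12.62 in small intestine and 10.15 in colon (5.54-fold). Of 12 other basement membrane genes, nephronectin (Npnt) was 8.43-fold and Smoc2 3.93-fold higher in small intestine, and 0 passed in favour of colon. Neither call held over all probe sets of the gene, with 0 for Npnt by their median and 0.61 by their mean, and 1.53 for Smoc2 by both. Of 11 genes of microfibril assembly none passed 3-fold.

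**Figure D3:**
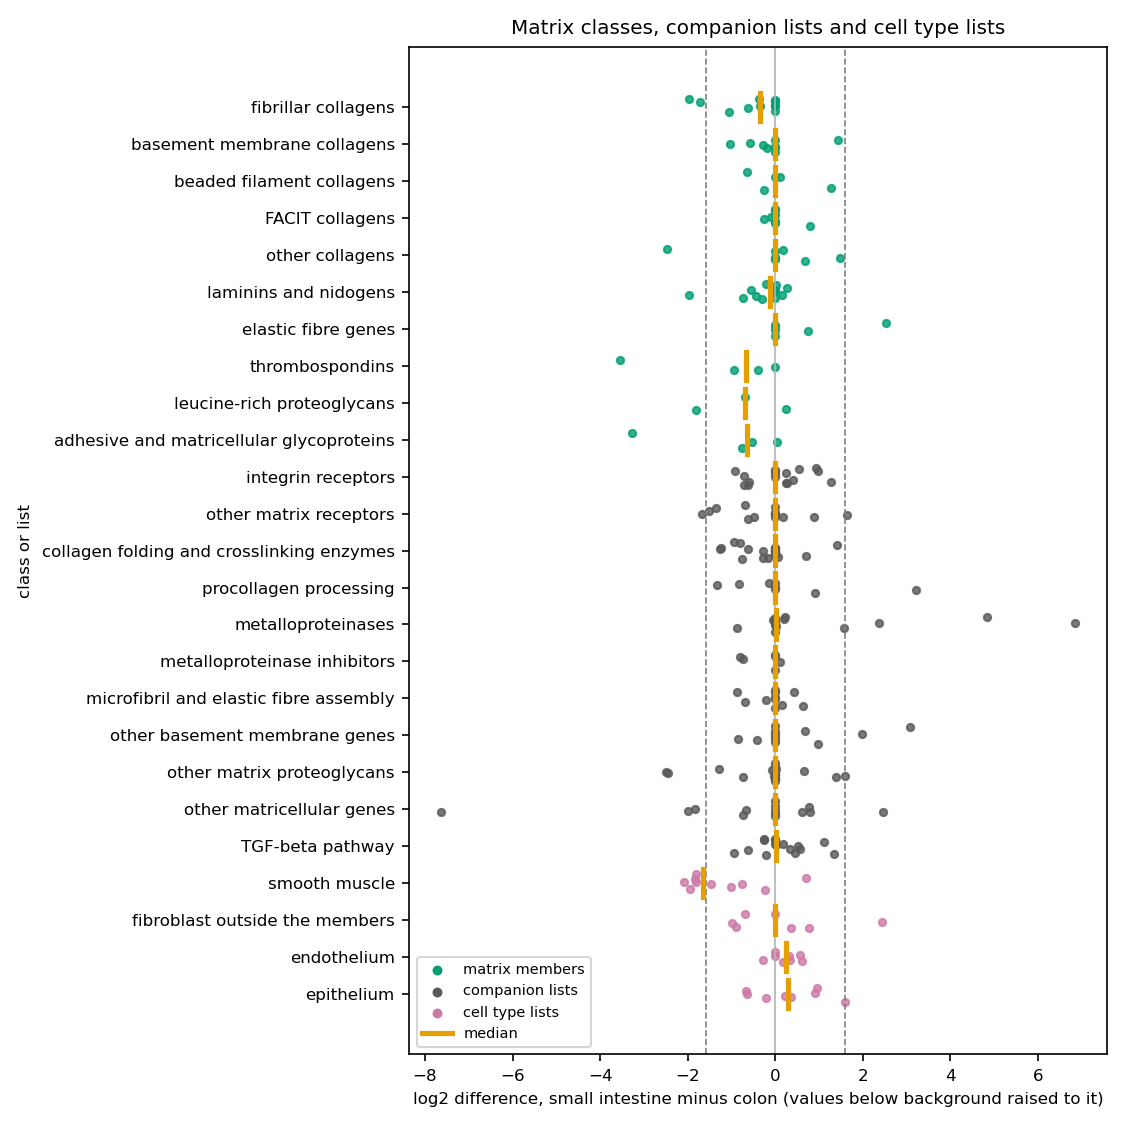
Log2 differences of the genes of 10 matrix classes (green), 11 companion lists (grey) and 4 cell type lists (pink), 1 point a gene, with the median of each as an orange bar and dashed lines at 3-fold. The bars of most lists stand at or near 0, that of smooth muscle at -1.65, and the farthest points are Ccn3 toward the colon and Mmp7 toward the small intestine. Genes at background on both arrays count as 0 in these medians, which pulls bars to 0, and all 10 smooth muscle genes lay above background. Over genes above background alone, the median was -0.66 for other matricellular genes and 0.67 for other basement membrane genes.

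The calls differed in how far they held when the values were processed in another way. Thbs4, Postn and Lamb3 stayed past 3-fold under each alternative that gave them a value. Each of them has 1 probe set, so the median and the mean over probe sets could not change their values. Col1a1, Col5a2, Col8a1 and Fbln1 fell short of it when the probe sets of a gene were averaged or their median was taken, and Lum did so when the arrays were centred on spike-in controls. Col18a1, Col13a1 and Col23a1 passed 3-fold in favour of the small intestine under at least 1 alternative.

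**Figure D4:**
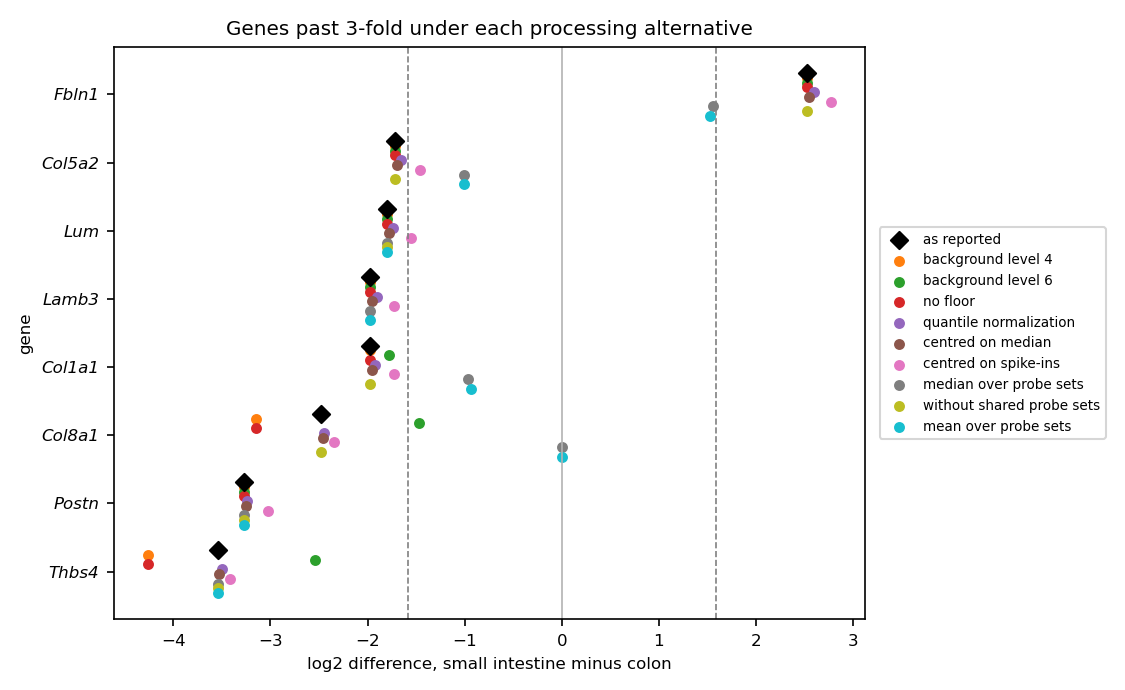
Log2 difference of the 8 genes past 3-fold as reported (diamonds) and under 9 processing alternatives (circles), with dashed lines at 3-fold. All points of Thbs4, Postn and Lamb3, which have 1 probe set each, lie beyond the dashed line. Those of Col8a1 reach 0 when its probe sets are averaged.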

How the data were processed

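The authors deposited normalized log2 expression values per probe set of 2 Affymetrix Mouse 430 2.0 arrays, each a summary of short probes that mostly lie near the 3' end of a transcript. The processing notes name GCRMA, which can widen folds against dim values, and the study's methods name RMA. No version, and no list of arrays normalized together, is given in the sources used here. Of 45101 probe sets, 34958 naming 1 gene in the platform annotation were used. Their symbols were checked by Entrez identifier against RefSeq (34754 matched, none differed). The brightest probe set by the mean of both arrays stood for a gene. The background level was 5, and the highest of 77 olfactory and vomeronasal receptor probe sets was 4.78. Only the size of 3-fold is taken from the study's methods, which apply it to sequencing FPKM with 1 added in the other tissue. Here it is applied to log2 array values with the floor. Precision is limited by having 1 array per tissue.

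The members, the 11 companion lists and the cell type lists were chosen with earlier results of these data known, and 223 of 240 list entries were measured. Each member above background is given with its levels or difference, up to 3 genes past 3-fold are named for a companion list (Sparcl1, beyond it, was added after its value was seen), and of lists without a call the genes named were chosen after their values were seen. Alternatives were background levels of 4 and 6 or none, folds of 2 and 5, quantile normalization, centring on the median or on spike-ins, the median or mean over probe sets, and leaving out probe sets marked _x, _s or _a. The procedure was tested on simulated data. There only bright genes were changed, all probe sets of a gene moved alike, and the noise was smaller than the spread between probe sets here. That test therefore says nothing of calls near background or of genes whose probe sets disagree. Python 3.11.15, numpy 2.4.6, pandas 2.3.3 and matplotlib 3.10.9 were used. Sequencing data from the study were not used.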

Additional observations from a re-analysis of the deposited data

How the results depend on the processing

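The count of members past 3-fold in favour of small intestine was 1, and it became 3 with a background level of 4, with no floor or with centring on spike-ins, 4 at 2-fold, and 0 with the median or the mean over probe sets. The count higher in the colon was 7, and it became 4 with the median or the mean over probe sets and 3 at 5-fold, while the other alternatives gave 5 to 9. The loss with the median or mean follows in part from probe sets at background, which enter both. Counts over all genes moved as well, from 629 in favour of small intestine and 605 in favour of colon. They were 714 and 704 at a background level of 4, and 770 and 759 with no floor. The median over probe sets gave 447 and 395, the mean 450 and 392, and centring on spike-ins 837 and 446. All genes were not counted at 2-fold and 5-fold. Of the 8 members past 3-fold, 3 stayed past it under every alternative with a value, and none changed sign. Those 3 (Thbs4, Postn and Lamb3) have 1 probe set each, so the median and the mean could not move them. Fbln1 was 1.56 and 1.53 with the median and the mean over probe sets (lower bounds), Col1a1 -0.97 and -0.94, Col5a2 -1.01 and -1.01, and Col8a1 0 and 0. Col8a1 was -1.47 at a background level of 6, and centring on spike-ins gave -1.46 for Col5a2 and -1.55 for Lum. Of the 35 other members above background, Col18a1, Col13a1 and Col23a1 passed 3-fold under an alternative (up to 1.69, 1.62 and 1.98), and Col16a1, Col4a1 and Lama3 took both signs. Centring on spike-ins moved the median of all genes above background to 0.17, against -0.06. The same alternatives were run for the 15 companion genes after the data were seen. Npnt (lowest 0), Aspn (-1.44), Smoc2 (1.53), Sdc2 (-1.41) and Cd36 (1.51) fell under 3-fold in at least 1, and none changed sign. No paired analysis was possible because each tissue had 1 array and no test was run.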

Other observations

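Genes of TGF-beta signalling, a pathway known to induce collagens, periostin and Ccn2 in fibroblasts, stayed under 3-fold in both directions. Of 16 measured, 13 lay above background and their differences ran from -0.95 for the receptor Tgfbr2, with 9.72 in small intestine and 10.67 in colon, to 1.34 for Smad4, with 12.62 in small intestine and 11.28 in colon. The inhibitory Smad7 had 8.11 in small intestine and 7.01 in colon. The ligand Tgfb2 had 4.95, below background, in small intestine and 5.62 in colon, and the ligands Tgfb1 and Tgfb3 lay at background on both arrays. The activity of the pathway was not tested. The median difference of the list was 0.01, and it was 0.17 over the 13 above background.

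Markers of fat and glia were also measured. Of 4 adipocyte genes, 1 (Cidec) was higher in small intestine by at least 9.35-fold and 0 passed 3-fold in favour of colon, while their summed linear level was 3101 in small intestine and 4767 in colon. Fabp4 weighs most in that sum, with 11.40 in small intestine and 12.17 in colon. Adipoq differed by -0.55, and Lep lay at background on both arrays. None of 4 glial and Schwann cell genes passed 3-fold.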
